A study of Mus musculus with 1646 samples.

Results

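The genes described here encode regulators of G protein signalling (RGS proteins). Their members were chosen by symbol, as the rows of the colon count table whose Ensembl identifier carries one of 10 names in the GENCODE vM21 annotation, and all 10 were found among 46517 genes. When a hormone or transmitter activates a G protein-coupled receptor, the alpha subunit of the G protein exchanges GDP for GTP and stays active until it hydrolyses the GTP. RGS proteins bind the active subunit and speed up this hydrolysis, so they shorten signals that pass through the Gq and Gi families, among them signals that make vascular smooth muscle contract. *Rgs2*, *Rgs3*, *Rgs4*, *Rgs5* and *Rgs16* belong to the R4 subfamily of small RGS proteins, *Rgs10*, *Rgs12* and *Rgs14* to the R12 subfamily, and *Rgs17* and *Rgs19* to the RZ subfamily.

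The levels were measured in 1646 single colon cells of male mice aged 10 to 20 weeks on a C57Bl6/J background. Each cell was sorted into 1 well of a 384-well plate as a CD31-negative event and sequenced as its own SmartSeq2 library of full-length cDNA. The cells came from mice of 4 reporter lines, each marking cells that use the regulatory region of the named gene with GFP or DsRed. They were PdgfrbGFP (46.2% of cells, 4 plates), Acta2GFP (34.4%, 2 plates), PdgfraGFP (13.8%, 2 plates) and Cspg4dsRED (5.53%, 1 plate). The authors enriched cells by reporter or by antibodies against PDGFRα or PDGFRβ, so a line need not hold only cells that use its promoter. They also left out cells without *Pdgfra* and *Pdgfrb* and cells with endothelial or immune signatures. Tissue of the Acta2GFP mice was digested with elastase as well, so line and digestion cannot be told apart. The labels name no mouse, so the line was the replicate, several mice may stand behind a line, and p-values measure the spread between lines. Where counts were summed per plate instead, plates of 1 line, which may share a mouse, counted as separate units. Those p-values do not measure the spread between lines.

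The labels place each cell in 1 of 8 clusters, which the authors drew from these same counts. In the terms of the study, clusters 7, 5, 1, 6 and 2 are fibroblasts ordered from the base of the crypt through its middle to its apex (13.5%, 25.8%, 29.3%, 2.73% and 7.96% of cells), and clusters 3, 4 and 8 are the mural cells, namely vascular smooth muscle cells (SMC, 8.57%), pericytes (8.63%) and interstitial SMC (3.40%). Tests between clusters are thus not independent of how the clusters were made, and they show how evenly a difference recurs over lines, except for interstitial SMC, of which only the Acta2GFP line entered the fit. Most markers were highest where these names would place them, with exceptions. *Pdgfra* averaged 1042 counts per 500000 in apex fibroblasts and 4.47 in vascular SMC. *Kcnj8*, a potassium channel subunit of pericytes, averaged 489 in pericytes, 103.1 in middle to apex fibroblasts, 86.8 in interstitial SMC and 32.2 in vascular SMC. *Hhip* averaged 1339 in interstitial SMC and at most 65.8 in any other cluster. Middle to apex fibroblasts also held the smooth muscle genes *Acta2* (908.5) and *Tagln* (220.2). The other fibroblast clusters had at most 169.1 and 20.8, and pericytes 1047 and 408.6. Interstitial SMC, which the study counts as mural, were high in smooth muscle genes such as *Myh11* (1891), but *Notch3* (0.229) and *Cspg4* (7.92) were no higher in them than in fibroblasts and *Pdgfrb* (93.6) was below every fibroblast cluster. Of the other mural markers on the list, *Mcam* (155.6) and *Des*, desmin (200.5), exceeded all fibroblast clusters (at most 3.29 and 52.7) and were below vascular SMC (539 and 1159). In apex fibroblasts the fibroblast genes *Dcn* (273.3) and *Lum* (82.9) stood below their levels in interstitial SMC (399.2 and 101.1). The pair of PdgfraGFP cells labelled as pericytes together held 0 *Kcnj8*, 0 *Notch3*, 0 *Rgs5* and 497 *Pdgfra* counts. Those cells enter no mean, since means were formed only over at least 10 cells of a cluster in a line.

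A cell held between 47598 and 1494292 counts on genes. A level is the count of a gene scaled to 500000 counts per cell, averaged first over the cells that a line contributed to a cluster, with the mean ± SD then taken over the lines. Interstitial SMC reached 10 cells in the Acta2GFP line alone, so they have no SD. Because longer transcripts collect more reads, members are compared with each other only per kilobase of exon.

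Per kilobase, the cells differed in which member led. Of the summed level of the members, *Rgs5* made up 79.3% in pericytes, followed by *Rgs4* with 17.99%. In vascular SMC the order was turned, with 61.6% for *Rgs4* and 33.5% for *Rgs5*. *Rgs10* made up 72.4% in interstitial SMC, 71.7% in middle to apex fibroblasts and 54.9% in apex fibroblasts. It was followed in each by *Rgs2*, with 15.96%, 15.9% and 36.8%. In base, base to middle and middle fibroblasts *Rgs10* also led, with levels per kilobase of 10.1, 11.9 and 29.2. The sum over the 10 members was 905 per kilobase in pericytes, 564 in vascular SMC, 380 in interstitial SMC and 332.9 in apex fibroblasts, against 22.9 to 96.5 in the other fibroblast clusters.

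**Figure D1:**
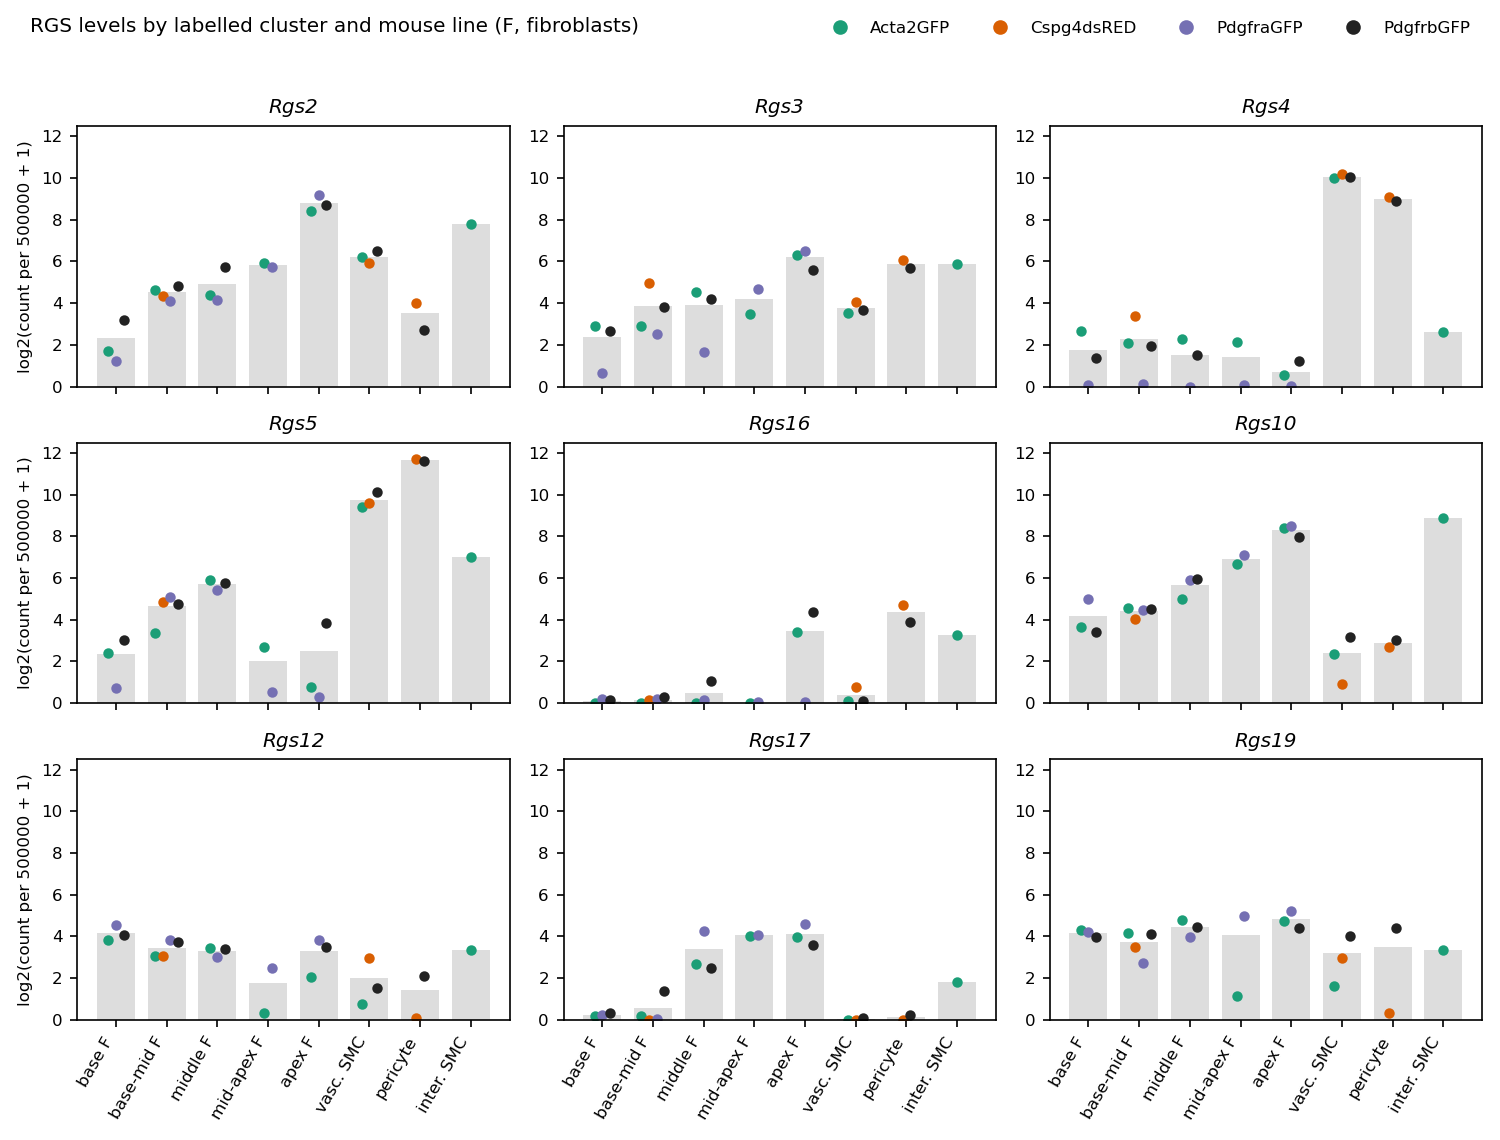
Level of 9 members in the 8 clusters, as log2(count per 500000 + 1), with *Rgs14* left out because it was close to 0 everywhere. Points are the means of single lines with at least 10 cells, grey bars the mean over lines, and F stands for fibroblasts; *Rgs4* and *Rgs5* are tall in vascular SMC and pericytes, while *Rgs2* and *Rgs10* are tall in apex fibroblasts and interstitial SMC.

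*Rgs4* and *Rgs5* were the members higher in both vascular SMC and pericytes than in every fibroblast cluster. *Rgs10* went the other way, with 0.887 to 7.93 in these mural clusters against at least 9.62 in the fibroblast clusters of single lines. No fit compared vascular SMC and pericytes without interstitial SMC to fibroblasts. *Rgs4* and *Rgs5* encode small R4 proteins that act on Gq and Gi, and *Rgs5* is a long-used pericyte marker. They are neighbours on chromosome 1 of GRCm38, *Rgs5* at chr1:169655501-169695813 on the plus strand and *Rgs4* at chr1:169741477-169747642 on the minus strand, with 45663 bases and no annotated gene between their 3′ ends. The 250 bases upstream of each RefSeq start site (build GRCm38.p6) are shown because the pair moved together across clusters, with the TATA sequence TATAAA and the CCAAT box, in its reverse form ATTGG, in capitals.

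*Rgs5*, chr1:169655251-169655500, plus strand: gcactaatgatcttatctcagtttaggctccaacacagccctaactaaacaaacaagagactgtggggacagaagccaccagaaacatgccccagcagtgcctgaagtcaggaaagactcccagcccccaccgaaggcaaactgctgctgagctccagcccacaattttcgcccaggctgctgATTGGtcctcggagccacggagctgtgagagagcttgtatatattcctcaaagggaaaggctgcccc
*Rgs4*, chr1:169747643-169747892, minus strand: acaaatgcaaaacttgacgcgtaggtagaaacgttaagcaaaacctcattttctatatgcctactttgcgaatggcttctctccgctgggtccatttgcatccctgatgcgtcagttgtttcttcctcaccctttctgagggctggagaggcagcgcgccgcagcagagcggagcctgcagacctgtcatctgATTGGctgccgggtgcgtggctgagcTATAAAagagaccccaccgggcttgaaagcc

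Both windows held a CCAAT box on the opposite strand, beginning 67 bases before the start site of *Rgs5* and 57 bases before that of *Rgs4*. Searched on both strands, CCAAT occurred in 33.8% of 32851 mouse promoter windows of this length. TATAAA on the gene's own strand began 31 bases before the *Rgs4* start, and it occurred in 7.59% of all windows. Neither window held a CArG box, the motif that serum response factor binds in smooth muscle genes, and none of the other 3 motifs searched was present in them on either strand. In all windows the CArG box occurred in 1.47%, TGGGAA in 21.6%, the AP-1 motif TGANTCA in 6.75% and the cAMP response element TGACGTCA in 1.55%. CANNTG, the E box, was present for *Rgs4* and in 66.2% of all windows. Of the other members, 7 had an entry in the RefSeq promoter table and *Rgs14* had none. These matches describe letters and not binding.

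*Rgs4* had levels of 359.5 (Acta2GFP), 830 (Cspg4dsRED) and 713 (PdgfrbGFP) in mural cells, and of 3.76, 5.59, 0.0384 (PdgfraGFP) and 2.18 in fibroblasts. Every mural value lay above every fibroblast value. These mural values pool the 3 mural clusters, and *Rgs4* in interstitial SMC lay within the range of the fibroblast clusters, as described below. *Rgs5* had 385.1, 2146 and 2199 in mural cells and 24.9, 30.5, 21.8 and 33.8 in fibroblasts, again with no overlap. In the fit over all genes, *Rgs4* was lower in fibroblasts by a log2 difference of -8.45 ± 1.17 (SE, adjusted p = 0.0032, edgeR quasi-likelihood test) and *Rgs5* by -5.95 ± 0.49 (adjusted p = 0.000335). Of the 9 members tested, these 2 passed, against 6.57% of 19173 genes. Without the PdgfrbGFP line the *Rgs4* call was lost (adjusted p = 0.0546) while its log2 difference stayed at -8.38. Their highest counts in a single cell were 0.963 (*Rgs5*) and 0.870 (*Rgs4*) per exonic base, and no gene with over 300 exonic bases exceeded 1.96. The methods speak of a removal of doublets with samtools. If read duplicates were what was removed, counts per gene have a ceiling, and the high levels of *Rgs4* and *Rgs5* and their differences may be understated. Which step was meant was not tested.

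High *Rgs4* counts were rare or absent in fibroblasts. At least 100 *Rgs4* counts, unscaled and so dependent on depth, were found in 59.3% of mural cells (95% exact binomial interval 53.9 to 64.6) and in 0 of 1307 fibroblasts, which allows a share of up to 0.230% (3 cells of the total, the limit used here for every count of 0). The highest count in a fibroblast was 26. After scaling, 2 fibroblasts had a level of at least 100, with a maximum of 215.5, against 64.3% of mural cells. Counts below that were frequent, with at least 1 *Rgs4* count in 33.97% of fibroblasts. These low counts moved with the plate. On the 7 plates with 8 or more mural cells, fibroblasts had *Rgs4* levels of 0.760 to 6.00, while on the 2 PdgfraGFP plates, each with 1 cell labelled mural, they had 0.0376 and 0.0387. Within the 7 plates, the *Rgs4* count of each fibroblast was set against the summed *Rgs4* counts of mural cells that shared its plate row or plate column, and Spearman's rho lay between 0.220 and 0.849 (median 0.734), while rho with the total count of the fibroblast lay between -0.033 and 0.262. These rho are across cells of a plate, which are not independent, and the part of such wells in the fibroblast counts was not tested. Shares of cells with at least 1 count are therefore not compared between groups for *Rgs4*.

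*Rgs5* differed from *Rgs4* in fibroblasts, since some held it at high counts. At least 100 *Rgs5* counts occurred in 43 middle fibroblasts (8.90%, interval 6.52 to 11.8), in 9 base to middle fibroblasts (2.12%), in 1 apex fibroblast (0.763%) and in 0 base fibroblasts, which allows up to 1.35%. They occurred in every line, in 8.05% of middle fibroblasts of Acta2GFP, 8.47% of PdgfrbGFP, in 1 of 8 of Cspg4dsRED and 12.3% of PdgfraGFP, the line whose plates held no mural *Rgs5* counts. The share of fibroblasts with an *Rgs5* count also moved with the plate. Their *Rgs5* levels overlapped, with 11.8 to 62.8 on plates with 8 or more mural cells and 1.65 and 31.1 on the PdgfraGFP plates. On the 7 plates with 8 or more mural cells, 21.4% to 100% of fibroblasts had an *Rgs5* count and rho with the mural counts of the same plate row or column was 0.298 to 0.847 (median 0.654), against 16.9% and 18.8% of fibroblasts on the PdgfraGFP plates. The part of such wells in low *Rgs5* levels, such as those at the base, was not tested. Chosen by *Rgs5* itself, these 43 cells are a description only. Their median level was 341.9 for *Rgs5* and 0 for *Rgs4*, and none reached 100 *Rgs4* counts. Their median was 137.2 for *Pdgfra* and 0 for *Notch3*, *Mcam* and *Kcnj8*, whereas pericytes had medians of 0 for *Pdgfra*, 434.7 for *Notch3*, 117.4 for *Mcam* and 251.1 for *Kcnj8*. Averaged over lines, *Rgs5* stood at 51.5 ± 8.26 (SD, n = 3 lines) in middle fibroblasts and 4.05 ± 3.30 (n = 3) in base fibroblasts. The log2 difference of base minus middle was -3.66 ± 0.84 (adjusted p = 0.0707) and did not pass, although it passed under 4 of 9 alternatives (DESeq2, no filter, sums per plate and without PdgfraGFP) with log2 differences of -3.77 to -3.35 and adjusted p of 7.74e-05 to 0.0439.

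Among mural cells, pericytes had more *Rgs5* than vascular SMC. The 2 lines gave 3398 (Cspg4dsRED) and 3125 (PdgfrbGFP) in pericytes, and the 3 lines gave 683 (Acta2GFP), 769 (Cspg4dsRED) and 1121 (PdgfrbGFP) in vascular SMC, without overlap. The log2 difference was 1.74 ± 0.28 (adjusted p = 0.0197), and *Rgs5* was the only member of 9 to pass, against 0.668% of 16328 genes. The call did not hold without the Acta2GFP line (log2 difference 1.63, adjusted p = 0.230) or with limma on means of log2 values (3.25, adjusted p = 0.160). *Rgs4* went the other way, with 536 and 472.8 in pericytes against 1019, 1154 and 1052 in vascular SMC, but its log2 difference of -1.20 ± 0.34 did not pass (adjusted p = 0.19), although it did with the line as a block (-1.25, adjusted p = 0.0351). In PdgfrbGFP, pericytes with more total counts had less *Rgs5* than those with fewer (2559 against 3691 when its cells were divided at their median depth), and 35 of them exceeded 0.5 counts per exonic base. The ratio of deep to shallow was thus 0.693 for *Rgs5* in pericytes of that line and 0.837 in Cspg4dsRED, and in vascular SMC it was 0.872, 0.793 and 0.737 in Acta2GFP, Cspg4dsRED and PdgfrbGFP. The fall was thus present in both clusters, and the part of depth in the comparison was not tested. The summed level of 7 endothelial genes was 101.4 and 53.6 in the pericytes of the 2 lines and 11.9 to 17.2 in vascular SMC, with *Tie1* (39.1) the highest and none at 0 in pericytes, and its part was not tested.

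Single mural cells filled different parts of the *Rgs4* by *Rgs5* plane. All 73 pericytes with at least 100 *Rgs4* counts also had at least 100 *Rgs5* counts, and another 54 pericytes reached 100 counts of *Rgs5* alone. The remaining 15 reached 100 unscaled counts of neither, 12 of them from PdgfrbGFP with *Rgs5* levels of 2.77 to 159.5 and *Rgs4* levels of at most 38.5. The share of pericytes with 100 *Rgs4* counts was 57.7% in PdgfrbGFP and 36.4% in Cspg4dsRED, whose cells were shallower (median 103665 against 269360 counts). Vascular SMC were the converse, since 93 reached 100 counts of both, 35 of *Rgs4* alone and 7 of *Rgs5* alone. *Rgs5* spread widely among vascular SMC, from 0 to 3264 with a median of 789 and quartiles of 178.6 and 1403, and the median differed by line, with 178.6 in Acta2GFP, 495.2 in Cspg4dsRED and 916 in PdgfrbGFP, while *Rgs4* had quartiles of 705 and 1359.

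**Figure D2:**
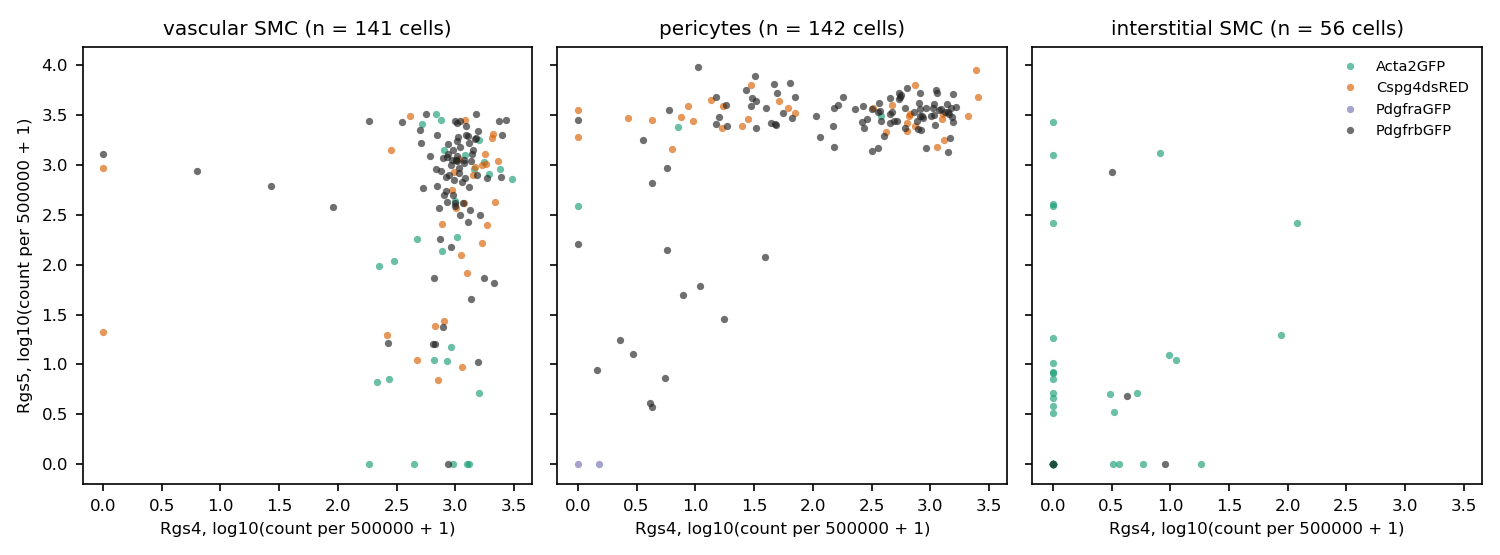
*Rgs5* against *Rgs4* in single mural cells, both as log10(count per 500000 + 1), in 3 panels by cluster and coloured by line. Vascular SMC form a column at high *Rgs4* with *Rgs5* from 0 to 3264, most pericytes a row at high *Rgs5* with *Rgs4* from 0 to 2550 beside a few cells low in both, and most interstitial SMC lie near 0 for both.

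Interstitial SMC had less *Rgs4* and *Rgs5* than the other mural clusters. *Acta2*, smooth muscle actin, averaged 5114 in them and 3588 in vascular SMC. Their median depth was 118252 counts, against 359677 in vascular SMC and 209805 in pericytes. The Acta2GFP line gave an *Rgs4* level of 5.15 and an *Rgs5* level of 128.1 in its 52 interstitial SMC. This *Rgs4* level lay within the 0 to 9.45 of the fibroblast clusters in single lines. No interstitial SMC reached 100 *Rgs4* counts (0 of 56, which allows up to 5.36%), and 5 reached 100 *Rgs5* counts, with 40.2% of the summed *Rgs5* level of that line in 1 cell. The 4 interstitial SMC of PdgfrbGFP had mean levels of 3.35 for *Rgs4* and 215.4 for *Rgs5*. The fit compared the single Acta2GFP sum with the other mural groups and took its spread to be theirs, so its p-values do not show that a difference recurs over lines of interstitial SMC. The pericyte sums came from the other 2 lines, so in that comparison cluster cannot be told apart from line and elastase digestion. Against vascular SMC, *Rgs4* differed by a log2 value of -7.07 ± 0.65 (adjusted p = 0.00247) and *Rgs5* by -2.43 ± 0.43 (adjusted p = 0.0191). Against pericytes the values were -5.87 ± 0.62 (adjusted p = 0.0017) and -4.18 ± 0.49 (adjusted p = 0.00346). All 4 calls held under each of the 8 alternatives run, among them sums of at least 3 cells, where the PdgfrbGFP cells gave a second interstitial sum (log2 differences of -7.52 and -2.45 from vascular SMC and of -6.22 and -4.31 from pericytes). Over the alternatives *Rgs5* ranged from -5.90 to -2.17 against vascular SMC and from -9.15 to -3.78 against pericytes, the lowest value in each from limma on means of log2 values, and *Rgs4* from -8.82 to -6.50 and from -6.22 to -5.32. Together with *Rgs10*, described below, 3 of 9 members passed in each of these comparisons, against 1.04% and 0.600% of 16328 genes. The median gene was lower in interstitial SMC, at log2 differences of -0.31 from vascular SMC and -0.25 from pericytes.

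**Figure D3:**
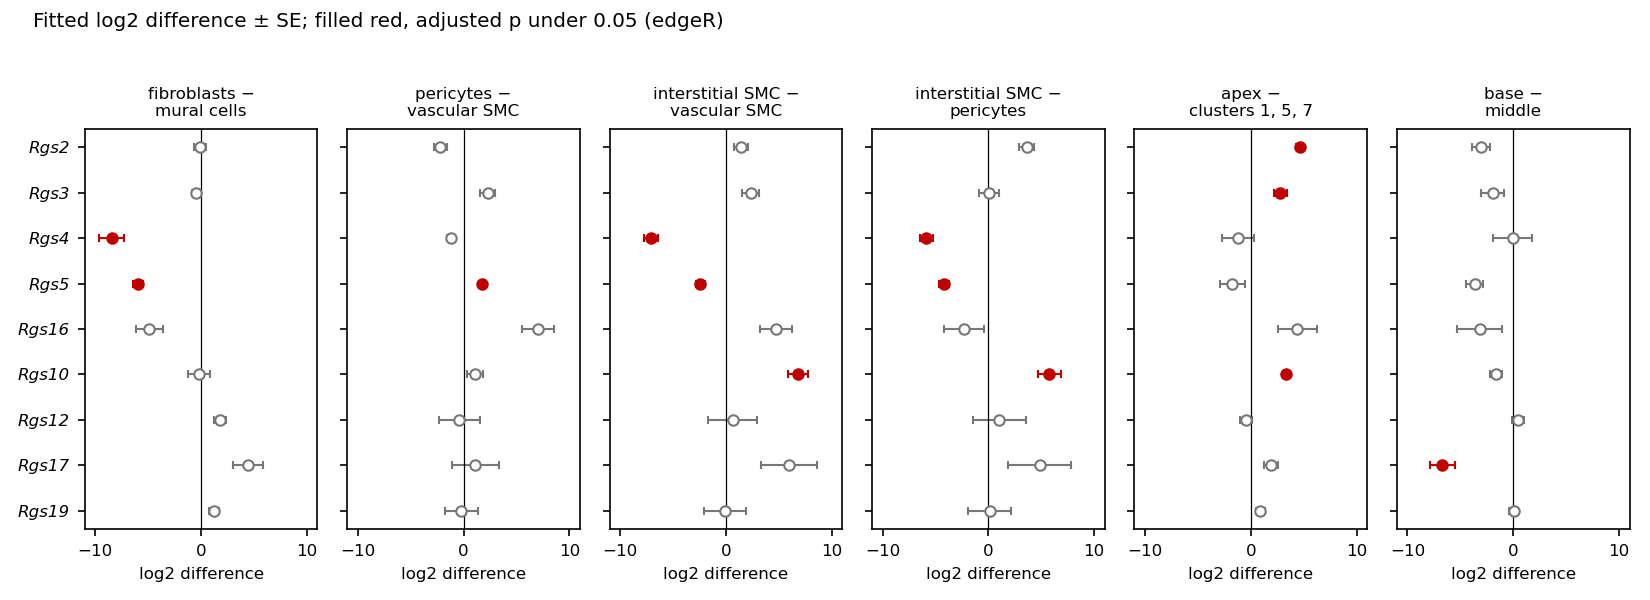
Fitted log2 difference ± SE of 9 members in 6 comparisons (first named group minus second), from edgeR on counts summed per line, with red filled points for adjusted p under 0.05. *Rgs4* and *Rgs5* lie left of 0 in fibroblasts and in interstitial SMC, *Rgs10* lies right of 0 in interstitial SMC, and *Rgs2*, *Rgs3* and *Rgs10* lie right of 0 in apex fibroblasts.

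*Rgs2*, *Rgs10* and *Rgs3* were higher in apex fibroblasts than in clusters 1, 5 and 7. *Rgs2* prefers Gq and lowers vascular tone, and its transcript is known as quickly inducible. *Rgs2* had levels of 342.2 (Acta2GFP), 583 (PdgfraGFP) and 410 (PdgfrbGFP) in apex fibroblasts, and of 15.9, 17.2 (Cspg4dsRED), 15.02 and 35.4 in clusters 1, 5 and 7. *Rgs10*, a small R12 protein made mostly of the RGS domain, had 332.9, 354.4 and 251.5 at the apex and 22.4, 20.5, 38.9 and 37.6 in the other clusters. The values of both genes did not overlap. *Rgs3*, which acts on Gq and Gi, had 79.2, 90.5 and 47.5 at the apex and 12.7, 35.8, 3.14 and 14.1 elsewhere. The lowest apex value of *Rgs3* thus lay only slightly above the highest of the others.

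The log2 difference of apex minus clusters 1, 5 and 7 was 4.67 ± 0.39 for *Rgs2* and 3.29 ± 0.28 for *Rgs10* (adjusted p = 0.000301 for each). It was 2.79 ± 0.60 for *Rgs3* (adjusted p = 0.0233). These 3 of 9 members passed, against 7.26% of 15893 genes. *Rgs2* and *Rgs10* passed under all 10 alternatives, whereas *Rgs3* failed without Acta2GFP (log2 difference 2.32, adjusted p = 0.214), without PdgfraGFP (2.51, adjusted p = 0.0671) and without PdgfrbGFP (3.07, adjusted p = 0.0608). Both leading genes were widespread among apex fibroblasts, with at least 100 *Rgs2* counts in 84 cells (64.1%) and at least 100 *Rgs10* counts in 86 (65.6%), and 66 cells had both. For both genes the share was 38.6% in Acta2GFP, whose apex cells had a median of 127711 counts, and 85.5% in PdgfraGFP, with 382902 counts. Across these cells the 2 levels were nearly unrelated (Spearman's rho 0.057, across cells and without a test).

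**Figure D4:**
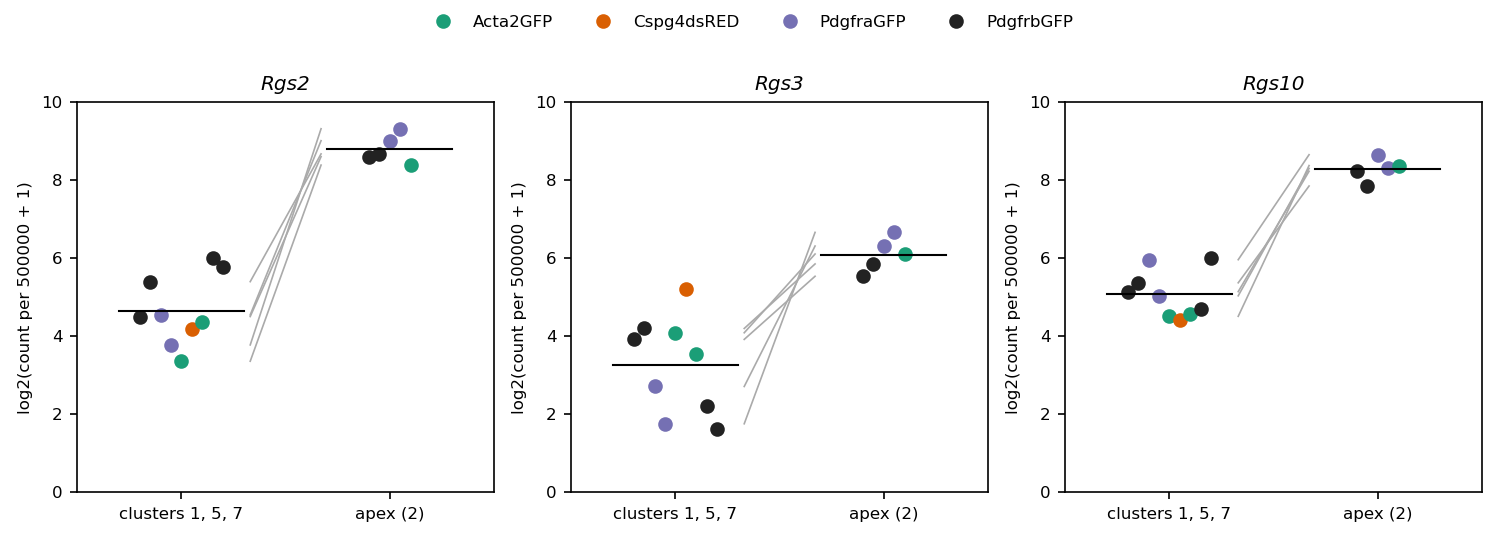
Levels of *Rgs2*, *Rgs3* and *Rgs10* as log2(count per 500000 + 1) in fibroblasts of clusters 1, 5 and 7 (9 plates) and of the apex (5 plates). Each point is the mean of at least 10 cells of a plate, coloured by line, black bars are means of the log2 values over plates, and grey lines join the same plate; on all 5 plates that hold both groups the apex value is the higher one for each gene.

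Along the crypt, the means of *Rgs10* followed the study's order, from 17.2 ± 11.7 (n = 3 lines) at the base over 20.3 ± 3.21 (n = 4), 49.97 ± 17.04 (n = 3) and 118.3 ± 25.3 (n = 2) to 312.9 ± 54.3 (n = 3) at the apex. The first pair of neighbours lay within each other's SD and the other neighbours did not. *Rgs2* followed the same order with 3.94 ± 3.76, 21.8 ± 5.06, 29.4 ± 19.05, 55.8 ± 4.66 and 444.9 ± 124.03, where base to middle and middle fibroblasts were within their spread. *Rgs10* and *Rgs2* were 3.13-fold and 8.28-fold lower at the base than in the middle in the fit, and neither passed (adjusted p = 0.273 and 0.154). With sums per plate both did (adjusted p = 0.00587 and 0.0190), and *Rgs2* also with DESeq2 (adjusted p = 0.00488).

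Dissociation genes were also higher in apex fibroblasts. The mean log2(count per 500000 + 1) of a list of 16 such genes (*Fos*, *Jun*, *Egr1* and others) was 7.78 ± 0.48 in apex fibroblasts (n = 3 lines), 7.37 ± 0.42 in vascular SMC (n = 3) and 6.37 in interstitial SMC, against 4.29 ± 0.17 in pericytes (n = 2) and 5.35, 6.13, 4.46 and 4.10 in base, base to middle, middle and middle to apex fibroblasts. In single lines the apex scored 7.33 to 8.28, above every other fibroblast cluster (at most 6.72). *Rgs2* stood at 73.5 ± 14.5 in vascular SMC, 220 in interstitial SMC and 10.3 ± 6.85 in pericytes. Its log2 difference of pericytes minus vascular SMC was -2.20 ± 0.60 and did not pass (adjusted p = 0.168, edgeR). It passed with DESeq2 (-2.14, adjusted p = 0.0404) and with no filter (-2.20, adjusted p = 0.0344). Without Cspg4dsRED, which left 1 pericyte sum, the difference was -2.87. Vascular SMC thus scored above interstitial SMC with less *Rgs2*. In means over lines, middle to apex fibroblasts had the lowest score but more *Rgs2* than the 3 fibroblast clusters before them. These means rest on different lines, since only Acta2GFP and PdgfraGFP entered that of middle to apex fibroblasts. Middle to apex fibroblasts scored below middle fibroblasts in Acta2GFP (3.95 against 4.07) but above them in PdgfraGFP (4.25 against 3.81). Whether the score accounts for any of the *Rgs2* difference was not tested. Over cells of 1 group on 1 plate, Spearman's rho between *Rgs2* and the score was between -0.114 and 0.241 in clusters 1, 5 and 7 on 8 of the 9 plates and 0.538 on the remaining PdgfraGFP plate (34 cells). *Rgs10* stood at 4.30 ± 3.53 in vascular SMC.

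**Figure D5:**
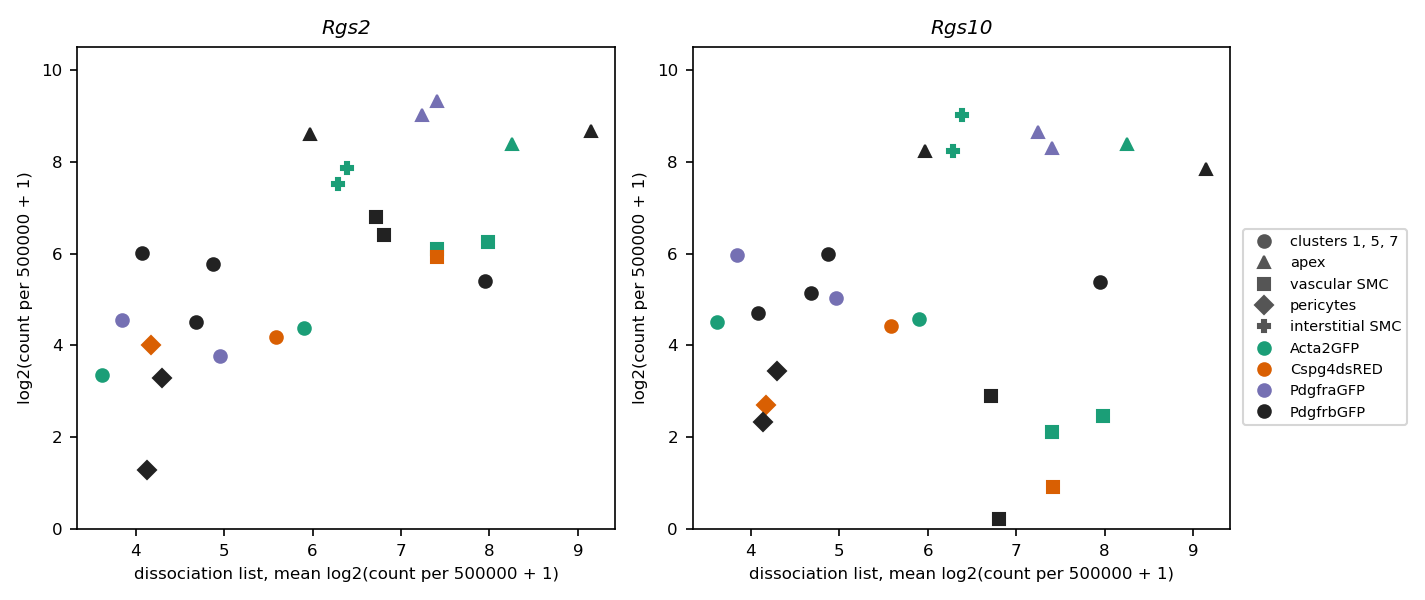
Levels of *Rgs2* and *Rgs10*, as log2(count per 500000 + 1), against the mean log2(count per 500000 + 1) of 16 dissociation genes, per plate and cell group with at least 10 cells. Marker shapes give the group and colours the line; apex fibroblasts (triangles) lie above clusters 1, 5 and 7 (circles) for both genes, and vascular SMC (squares) are at the bottom for *Rgs10*.

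In mural cells *Rgs10* was highest in interstitial SMC, where all 56 cells had at least 1 count and 28 had at least 100, against 2 vascular SMC (1.42%) and 4 pericytes (2.82%) with at least 100. The level was 470 in the Acta2GFP line, against 4.07, 0.887 and 7.93 in vascular SMC and 5.48 and 7.04 in pericytes. The log2 difference was 6.84 ± 0.93 against vascular SMC (adjusted p = 0.00492) and 5.76 ± 1.06 against pericytes (adjusted p = 0.0368), again from a single interstitial sum with the spread of the other groups. With the line as a block, neither passed (adjusted p = 0.0617 and 0.467) at log2 differences of 6.88 and 5.13. The 4 interstitial SMC of PdgfrbGFP had *Rgs10* levels of 247.5 to 480.03 with a median of 336.6, and the median of the 52 Acta2GFP cells was 499. *Rgs2* differed between interstitial SMC and pericytes by a log2 difference of 3.61 ± 0.73 that did not pass (adjusted p = 0.0569), although 6 of 8 alternatives passed (3.57 to 5.04, adjusted p of 6.27e-06 to 0.0333). Those that did not were the line as a block and the omission of PdgfrbGFP. In the whole fibroblast against mural comparison *Rgs10* showed no direction, with -0.18 ± 1.04, and its sign turned to 3.08 without the Acta2GFP line, which supplied 52 of the 56 interstitial SMC.

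*Rgs3* and *Rgs16* complete the R4 members. *Rgs3* had levels of 65.5 and 50.1 in pericytes and 57.5 in interstitial SMC, against 10.4, 15.8 and 11.9 in vascular SMC. The groups did not overlap, but the log2 differences of 2.27 ± 0.71 and 2.32 ± 0.82 from vascular SMC did not pass (adjusted p = 0.237 and 0.318), while both did with sums per plate (adjusted p = 0.0403 and 0.0192) and the first also with DESeq2 (adjusted p = 0.0149). *Rgs16* was sparse. Its means of 25.3 and 13.6 in pericytes rested on few cells, with at least 1 count in 17 pericytes (11.97%) and 97.4% of the summed Cspg4dsRED level in 1 cell. The log2 difference of pericytes minus vascular SMC was 7.02 ± 1.498 (adjusted p = 0.0662) and that of fibroblasts minus mural cells -4.89 ± 1.30 (adjusted p = 0.0557). The former passed under 4 of 9 alternatives (adjusted p of 3.04e-06 to 0.0428) and the latter under 1 of 9, without PdgfrbGFP (adjusted p = 0.0494). An annotated antisense gene, *Gm28513*, overlaps exons of *Rgs16*, and no source says that reads were counted by strand, so its counts are uncertain, as are those of *Rgs12* (*Gm43791*).

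Of the other R12 members, *Rgs12*, a large multidomain protein, was low everywhere and highest at the base, with 17.1 ± 4.88 in base fibroblasts, 10.0 ± 3.17 in base to middle and 8.84 ± 1.45 in middle fibroblasts, and 3.06 ± 3.18 in vascular SMC. The log2 difference of fibroblasts minus mural cells was 1.80 ± 0.57 and did not pass (adjusted p = 0.0989), although it did with DESeq2 (adjusted p = 1.98e-07). *Rgs14*, known from brain and lymphocytes, had 14 counts in all, spread over 12 cells, and passed no filter.

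The RZ members act on Gi and Gz. *Rgs17* was highest in fibroblasts from the middle of the crypt upwards. Its level was 0.122, 0.167 and 0.257 in base fibroblasts of Acta2GFP, PdgfraGFP and PdgfrbGFP, and 5.46, 18.1 and 4.61 in middle fibroblasts of these lines, without overlap. The log2 difference of base minus middle was -6.69 ± 1.14 (adjusted p = 0.0269), and *Rgs17* was the only member of 9 to pass, against 2.49% of 15862 genes. It failed without Acta2GFP (-6.57, adjusted p = 0.316), without PdgfrbGFP (-7.53, adjusted p = 0.255), with the line as a block (-6.51, adjusted p = 0.0829) and with limma on means of log2 values (-0.49, adjusted p = 0.0755). Few cells carried it, with at least 100 counts in 13 middle (2.69%) and 0 base fibroblasts, which allows up to 1.35%. At the apex the level was 16.1 ± 6.01, and the log2 difference from clusters 1, 5 and 7 was 1.90 ± 0.62 (adjusted p = 0.106), which passed with DESeq2 and with limma (adjusted p = 0.0134 and 0.0403). Vascular SMC and pericytes had almost none, with 0.0187 ± 0.0324 and 0.0769 ± 0.109, while interstitial SMC of Acta2GFP had 2.51, a mean above every base fibroblast value. Of its sum 87.4% came from 1 cell with a level of 114.1. Without that cell the mean was 0.323, and 4 of the 52 cells had a count. *Rgs19* (also called GAIP) was the most even member in its cluster means, between 8.05 ± 6.65 in vascular SMC and 27.2 ± 8.39 in apex fibroblasts, and passed in no comparison. Single lines differed more, with 0.233 (Cspg4dsRED) and 20.2 (PdgfrbGFP) in pericytes and 1.23 (Acta2GFP) and 29.9 (PdgfraGFP) in middle to apex fibroblasts. Fibroblasts minus mural cells gave 1.23 ± 0.46 (adjusted p = 0.162), which passed with DESeq2 and with sums per plate (adjusted p = 0.0373 and 0.0483).

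Across the 21 means of a cluster in a line, *Rgs4* and *Rgs5* resembled each other with Pearson's r = 0.870 of log2(level + 1), and *Rgs10* and *Rgs17* with 0.813. *Rgs4* and *Rgs10* ran in opposite directions (r = -0.715). The genes most like *Rgs4* among 14327 compared were *Olfr558*, *Sncg* and *Gja4* (r = 0.984, 0.982 and 0.981). Those most like *Rgs5* were *Plekha2*, *Inpp4b* and *Sort1* (0.944, 0.926 and 0.919), and those most like *Rgs10* were *Dnaic1*, *Lxn* and *Bdkrb2*, the bradykinin B2 receptor (0.910, 0.901 and 0.890). *Rgs3* was most like *Ednrb*, the endothelin B receptor, *Ptprk* and *Mras* (0.872, 0.810 and 0.805), and *Rgs2* like *Pkm*, *Gm15677* and *Gm10382* (0.841, 0.841 and 0.835). *Rgs17* was most like *Syt13*, *Cybrd1* and *Milr1* (0.936, 0.925 and 0.921), *Rgs19* like *Meis3*, *Birc3* and *Traf2* (0.951, 0.908 and 0.905), *Rgs12* like *Slc38a10*, *Capn5* and *Gm11769* (0.901, 0.889 and 0.886), and *Rgs16* like *Pik3cd*, *Plcb2* and *Gm37124* (0.889, 0.805 and 0.767). The 21 means share lines and plates, so these r are descriptions.

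The receptors and subunits whose signals RGS proteins shorten were followed in 3 lists. Of 37 receptors that couple to Gq or Gi, 27 were tested between apex fibroblasts and clusters 1, 5 and 7, and 5 were higher and 3 lower at the apex, against 7.26% of all genes called there. The largest increases were those of *Lpar3*, a lysophosphatidic acid receptor (log2 difference 8.82), *Tacr1*, the substance P receptor (7.61), and *Ednrb* (7.33), and the lower ones were *Adra1b* (-5.98), *S1pr3* (-4.37) and *Tbxa2r* (-4.25). Of 34 G protein subunits and effectors, 32 were tested there, with 2 higher (*Gnao1*, 3.06, and *Gnai1*, 1.75, both alpha subunits of the Gi family) and 2 lower (*Plcb4*, -7.66, and *Adcy6*, -3.81). The median log2 difference was -0.67 over the receptors and -0.19 over the subunits and effectors, against 0.0047 over all genes.

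Between fibroblasts and mural cells, 2 of 33 receptors tested were higher in fibroblasts (*Lpar3*, 6.94, and *S1pr2*, 3.36) and 6 lower, among them the adrenergic receptors *Adra2a* (-8.92), *Adra2b* (-5.69) and *Adra1a* (-5.44). Of 32 subunits and effectors, *Adcy7* was higher (4.38) and 5 were lower, including *Prkg1*, a cGMP-dependent kinase (-4.97), and *Gucy1b1*, a subunit of soluble guanylate cyclase (-3.35). The medians were -0.83 and -0.39, against -0.028 over all genes, of which 6.57% were called. Pericytes exceeded vascular SMC, where 0.668% of all genes were called, in 2 of 29 receptors, *Agtr1a*, the angiotensin II receptor (7.00), and *Ednrb* (4.35), and in none of 32 subunits and effectors, where edgeR's unadjusted test over all genes had 1778 of 16328 under 0.05. Of the same 29 receptors, 4 were called between interstitial and vascular SMC and 1 between interstitial SMC and pericytes, against 1.04% and 0.600% of all genes. These are values of the Acta2GFP sum alone, without a replicate of interstitial SMC. It had more *F2r* (6.71) and *P2ry14* (2.92) and less *S1pr3* (-7.62) and *Npy1r* (-6.13) than vascular SMC, and less *S1pr3* than pericytes (-5.20). *Adcy6* was lower in it than in vascular SMC (-7.86) and pericytes (-7.98). Between base and middle, 4 of 21 receptors and 3 of 31 subunits and effectors were called, against 2.49% of all genes. At the base of the crypt, *Npy1r* was higher than in the middle (6.34), and *Ptger1* (-4.77), *Ednra* (-4.32), *F2r* (-4.10), *Gucy1a1* (-3.82), *Gucy1b1* (-3.41) and *Gnai1* (-2.72) were lower.

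Of 15 other RGS genes and RGS-binding genes, 6 to 9 were tested in each comparison, and *Rgs7bp*, which anchors R7 RGS proteins at the membrane, was the one that passed, in 1 of 8, 1 of 7 and 1 of 7 tested genes of 3 comparisons that called 6.57%, 1.04% and 0.600% of all genes. Its level was 160 ± 65.3 in vascular SMC and 53.1 ± 15.8 in pericytes, against 0.240 in interstitial SMC of Acta2GFP and 0 in the 4 of PdgfrbGFP. Its log2 difference was -5.79 between fibroblasts and mural cells (adjusted p = 0.00667). It was -8.14 between interstitial and vascular SMC and -6.40 between interstitial SMC and pericytes, again from 1 interstitial sum.

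Finally, the lines were compared within the same fibroblast clusters, which the clusters themselves do not fix. Clusters 1, 5 and 7 were summed per plate and the 2 Acta2GFP plates set against the 4 PdgfrbGFP plates. No member passed and neither did any other gene (0% of 17650 by edgeR, with 514 at an unadjusted p under 0.05, and 25 genes called by DESeq2). *Rgs2* had 9.28 and 19.8 on the Acta2GFP plates and 21.7, 41.3, 53.5 and 63.2 on the PdgfrbGFP plates, without overlap, and a log2 difference of -1.63 ± 0.45 (unadjusted p = 0.00521, adjusted p = 1.00, edgeR). *Rgs10* had 21.8 and 22.8 against 25.1 to 63.01 and differed by -0.90 ± 0.35 (unadjusted p = 0.0277, edgeR). In clusters 7, 5 and 1 taken singly, *Rgs10* had 11.4, 22.7 and 30.4 in Acta2GFP against 9.62, 21.8 and 61.4 in PdgfrbGFP. *Rgs2* had 2.23, 24.1 and 19.8 against 8.25, 27.7 and 51.3. The part of the cluster mix in the pooled differences was not tested. *Rgs4* spanned 0.858 to 6.07 on the Acta2GFP plates and 1.23 to 5.22 on the PdgfrbGFP plates and overlapped, as did *Rgs5* and *Rgs3*.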

How the data were processed

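Each of the 1646 cells was a single library in a 384-well plate, sequenced as single 50-base reads. Per the labels and the study's methods, the authors mapped reads to GRCm38 (mm10) with TopHat2, removed what they call doublets with samtools, and deposited raw counts per gene from featureCounts (Subread), whose annotation release and strand setting are not given in the sources used here. No molecular identifiers were used, so intervals and limits cover counting error only. The 92 spike-in rows were left out.

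For each group and line with at least 10 cells, the counts of all its cells were added up and fitted with edgeR 4.0.16 in R 4.3.3 (TMM scaling, filterByExpr, quasi-likelihood test), with Benjamini-Hochberg adjustment over all genes tested and a threshold of 0.05. The 3 mural clusters shared 1 fit, and the lines were compared on sums per plate. SE is the absolute log2 difference divided by the square root of F. Levels came from pandas 2.3.3 and scipy 1.17.1 under Python 3.11.15, and intervals are exact binomial (95%). Depth was 47598 to 1494292 counts per cell with a median of 248628.

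Alternatives were DESeq2 1.42.0, limma 3.58.1 on means of log2(count per 500000 + 1), no filter, sums per plate, at least 3 cells per sum, the line as a block, and each line left out. As a check of the pairing by line, deviations of the same line in both groups correlated with r of 0.152 to 0.175 (fibroblasts and mural cells), 0.150 to 0.157 (pericytes and vascular SMC), 0.0851 to 0.115 (apex and other fibroblasts) and 0.133 to 0.171 (base and middle). The members and the gene lists were chosen with earlier results of these data known. All members were described, and of the other lists the genes named were up to 3 per direction with the largest difference among those called. Promoter sequences came from RefSeq (GRCm38.p6).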

Additional observations from a re-analysis of the deposited data

Results flagged for a closer look

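In 26 groups of 4 lines or plates tested for a value far from the others, where chance gives about 1 in 20, there were 3. *Rgs16* in clusters 1, 5 and 7 had a level of 7.51 on 1 PdgfrbGFP plate against 0.0494 to 0.444 on the other 3 plates of that line. *Rgs10* over all fibroblasts had 127.2 in PdgfraGFP against 38.2 to 52.3 in the other 3 lines. Apex fibroblasts, the cluster with the highest *Rgs10* level among fibroblasts, made up 24.4% of the fibroblasts of PdgfraGFP against 5.25% to 9.11% in the other lines. The part of this share in the *Rgs10* value was not tested. *Rgs17* in base to middle fibroblasts had 1.63 in PdgfrbGFP against 0 to 0.148 in the other 3 lines. Among 20 effects compared between lines, that of *Rgs16* between apex and clusters 1, 5 and 7 went opposite ways, with log2 differences of -0.165 and -0.125 on the 2 PdgfraGFP plates and of 2.83 and 4.36 on the 2 PdgfrbGFP plates. The difference of the means was -3.74, and it was not tested.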

How the results depend on the processing

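*Rgs5* between fibroblasts and mural cells, *Rgs2* and *Rgs10* at the apex, and *Rgs4* and *Rgs5* in interstitial SMC were called under all alternatives run, and the other 6 calls were each lost under at least 1. The number of members called rose with DESeq2 to 5 (fibroblasts and mural cells), 4 (pericytes and vascular SMC), 5 (apex) and 3 (base and middle), while the percent of all genes called rose to 15.3, 5.93, 15.1 and 8.35. With sums per plate it was 4, 3 and 4 for the first, second and last of these (16.1%, 2.18% and 5.30% of all genes), and without a filter 3 (pericytes and vascular SMC, 1.85%) and 2 (base and middle, 1.42%). With limma it was 0 in both of the latter (0.435% and 1.94%). With the line as a replicate block it was 2 for pericytes and vascular SMC (1.04%) and 0 for base and middle (1.26%). With each line left out it ranged from 0 to 2 in both of these comparisons. The interstitial SMC comparisons, which mostly hold 1 interstitial sum, are left out of these counts. Members were gained there too, such as *Rgs16* against vascular SMC (log2 differences of 4.72 without a filter and 4.75 with DESeq2). The cause of these changes was not tested. With the line as a block, the calls that changed are those given with the results. Over all settings, the lowest and highest percent of genes called were 1.81 (without the PdgfrbGFP line) and 16.1 (sums per plate) between fibroblasts and mural cells. They were 0.300 and 5.93 between pericytes and vascular SMC and 0.135 and 8.35 between base and middle (without the Acta2GFP line, and DESeq2). They were 0.784 and 5.92, and 0.349 and 4.43, for interstitial SMC against vascular SMC and against pericytes (the block, and DESeq2), 1.18 and 15.1 at the apex (without the Acta2GFP line, and DESeq2), and 0 and 0.142 between lines (as reported, and DESeq2).

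Of 566 log2 differences of members under alternatives, 42 changed sign, 37 passed where the value reported had not, and 12 failed where it had passed. No called member changed sign. Between fibroblasts and mural cells, *Rgs10* turned to 0.87 with limma and 1.21 with the line as a replicate block, and ranged from -0.74 to 3.08 with lines left out, and *Rgs2* from -0.71 to 0.77. Between pericytes and vascular SMC, *Rgs19* turned to 0.024 with limma and 0.43 with sums per plate (-4.96 to 1.48 with lines left out), *Rgs12* to 0.27 with sums per plate (-4.84 to 1.74), and *Rgs10* to -0.12 with limma. Between interstitial and vascular SMC, *Rgs19* turned to 2.08 with the block and 2.03 with at least 3 cells per sum (-0.10 to 0.64), and *Rgs12* to -0.012 with at least 3 cells. Between interstitial SMC and pericytes, *Rgs19* turned to -0.11 with limma and -0.53 with sums per plate (-0.84 to 4.86), *Rgs3* to -0.61 with at least 3 cells (-0.22 to 0.36), and *Rgs16* ranged from -3.15 to 0.061. At the apex, *Rgs12* turned to 0.011 with sums per plate. Between base and middle, *Rgs4* turned to 0.024 with limma, 0.36 with the block and 0.067 with at least 3 cells (-0.92 to 0.36), *Rgs19* to -0.051 with sums per plate and -0.88 with at least 3 cells (-0.070 to 0.21), and *Rgs12* to -0.44 with at least 3 cells. Between lines, cluster 1 alone gave 0.41 for *Rgs5* (-0.80 to 0.27 with plates left out), 0.23 for *Rgs19* and 0.20 for *Rgs12* (-0.44 to 0.33), and cluster 5 alone 0.14 for *Rgs19* (-0.27 to 0.31), while *Rgs4* ranged from -1.93 to 0.39. Interstitial SMC could not be compared without the Acta2GFP line, which alone held 10 of them. *Rgs14*, with 14 counts in 12 cells, could not be compared at this depth.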
